A study of Homo sapiens with 16 samples.

Results

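Cells of the human hepatoma line HepG2, which retains many traits of hepatocytes, were compared after exposure to elaidic acid and after exposure to oleic acid. The 2 acids are isomers. They have the same chain and the same place of the double bond, which is trans in elaidic acid and cis in oleic acid. Members were taken by their sample titles, 4 with elaidic acid and 4 with oleic acid, which makes 8 of the 16 samples of the series. Both acids were given at 100 µM for 7 days in medium without serum, so that dose and time are matched and 1 pair of compounds is compared. The series also holds 4 samples without added fatty acid (control) and 4 with stearic acid. These entered the model to estimate the spread. They also took part in the filter of probes, the normalisation and the choice of 1 probe per gene. The 4 samples of a group are biological replicates by the series' description, each with 2 technical replicates of 1 RNA extract. HepG2 is 1 tumour line, so the replicates share 1 genome. The title of the series names a biomarker panel for the intake of elaidic acid, a common dietary trans fat, as its aim.

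Fatty acids that enter a hepatocyte are bound by carrier proteins, activated to acyl-CoA, and then stored as triglyceride, oxidised, built into membranes or exported in lipoproteins. The transcription factors SREBP-1 and SREBP-2 sit in the endoplasmic reticulum (ER) and are released when membrane sterol falls, and they then switch on genes of fatty acid and cholesterol synthesis. Unsaturated fatty acids such as oleic acid are known to hold SREBP-1 processing back. In all that follows a level is a quantile-normalised log2 intensity of 1 probe, a difference is the elaidic acid mean minus the oleic acid mean on that log2 scale, and levels of different genes are not comparable. A probe was called when its limma p-value, adjusted by Benjamini-Hochberg over all 22939 tested probes, was under 0.05.

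The slide numbers in the labels fall into 2 ranges, A and B. Elaidic acid replicates 2 and 4 lie in range A together with all 4 oleic acid samples, while elaidic acid replicates 1 and 3 lie in range B with the stearic acid samples. What the ranges stand for in the laboratory is not given in the sources used here. Median intensity before normalisation was 53.9, 25.5, 57.8 and 32.6 in elaidic acid replicates 1 to 4, against 25.4, 43.1, 49.4 and 20.7 in oleic acid replicates 1 to 4. The groups overlapped (exact permutation test, two-sided, p = 0.49, where the smallest possible p is 0.029). After normalisation the first principal component of the 8 arrays held 47.1% of the variance. Elaidic acid replicates 1 and 3 lay at 124.2 and 103.7 on it, replicates 2 and 4 at -22.2 and -25.2, and oleic acid replicate 4 at -123.4, with the other oleic acid arrays between -27.9 and -9.4. Counts of calls and list medians are therefore given over all 4 elaidic acid samples and again within range A, as are the values of many named genes. Within range A replicates 2 and 4 were set against the 4 oleic acid samples by a model with the range as a block. In that smaller comparison a one-sided exact permutation test of a value cannot go below p = 0.067. The two-sided test used here has a higher floor.

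**Figure D1:**
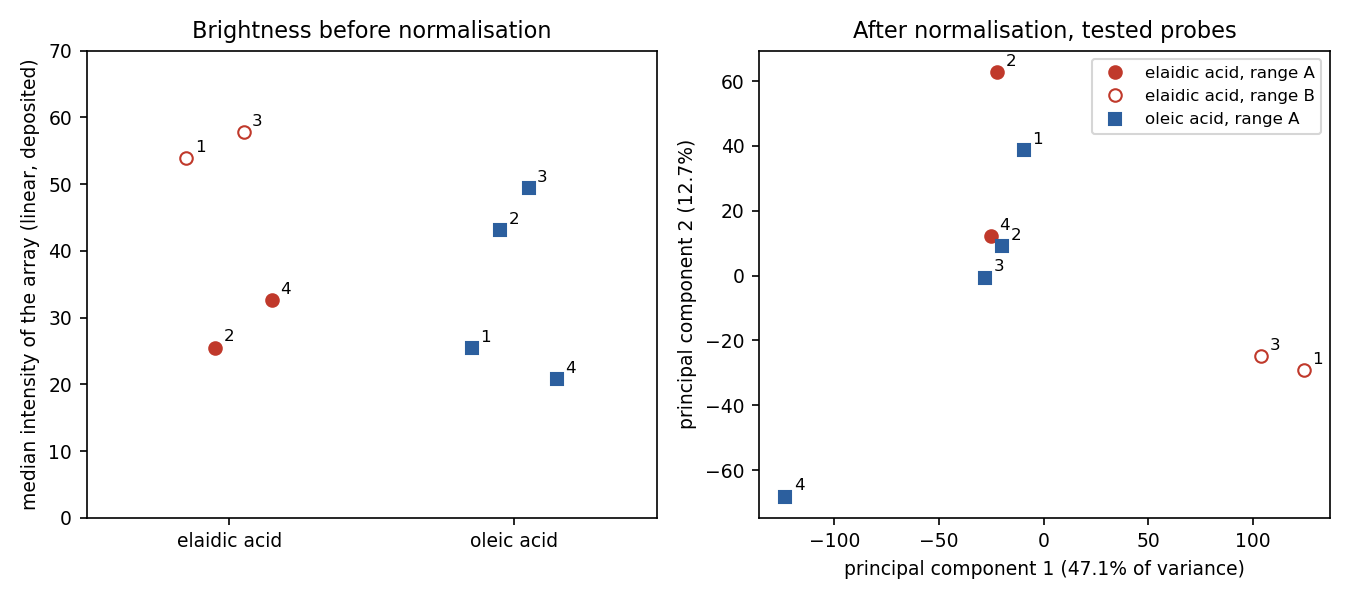
Left: median intensity of each array as deposited (linear scale), with elaidic acid arrays as circles and oleic acid arrays as squares, each numbered by replicate. Right: the first and the second principal component of the 8 arrays after quantile normalisation. Filled symbols are range A and open symbols range B. Elaidic acid replicates 1 and 3 lie at 124.2 and 103.7 on the first component and oleic acid replicate 4 at -123.4.

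The labelled cell type was checked against its markers. The 8 hepatocyte markers with a tested probe summed to a linear normalised intensity of 72278 to 129543 in the elaidic acid samples, against 25790 to 65391 in the oleic acid samples, and within range A to 72278 to 88841 with elaidic acid. These ranges did not overlap, and all 8 markers had a higher mean with elaidic acid. The transferrin gene TF, for iron carriage in plasma, had a difference of 2.23 ± 0.48 (SE, n = 4 per group; limma adjusted p = 0.066). ALB and HNF4A have no probe of that symbol and were not analysed here. Of 20 markers of fibroblasts, endothelium, blood cells and bile duct cells 12 were tested, and their sum was 8862 to 10313 with elaidic acid against 7962 to 11051 with oleic acid. SOX9 and CD14 gave the highest values in that sum, with mean levels of 12.58 and 10.45 over the 16 samples. The sum therefore says little about the dimmer markers. Vimentin (VIM), KRT7, COL3A1, KDR and LYZ had values at or below 0 in some samples and were left out, and none of the 12 tested markers was called. In bulk samples, more cells of a kind and more RNA per cell cannot be told apart.

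Between the isomers 73 of 22939 probes were called (0.318%), 69 higher with elaidic acid (0.301%) and 4 lower (0.0174%). The 4 samples of each acid did not overlap for any of the 73, where 7.08% of all tested probes had groups that did not overlap, 4.07% higher and 3.01% lower. An unadjusted p under 0.05 was found for 4342 probes. Of the 73 called probes 58 carry a gene symbol, for 57 genes, and 15 carry none. Within range A 5 probes were called (0.0218%), and 4 of them belong to the 73: CYP51A1, KNG1, PCOLCE and 1 probe without a gene symbol. The median difference of the 69 probes called higher was 1.54 over all samples and 1.33 within range A. The elaidic acid samples of range B had a higher mean than those of range A for 60 of the 69, by a median of 0.46. Over all tested genes, with 1 probe per symbol, the median difference was 0.03 over all samples and 0.04 within range A, and 6199 of 12067 genes (51.4%) were higher with elaidic acid. Over all tested probes, many of them without a symbol, the median was -0.13 over all samples and 0.01 within range A, and 9845 of 22939 (42.9%) were higher. The split of 69 higher and 4 lower depended on the model: with array weights 8953 probes were called, 4300 higher and 4653 lower, and with elaidic acid replicates 1 and 3 alone 5054, 2590 higher and 2464 lower. Other fits gave fewer calls, with 0 for the 8 samples alone and 3 without elaidic acid replicate 1.

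**Figure D2:**
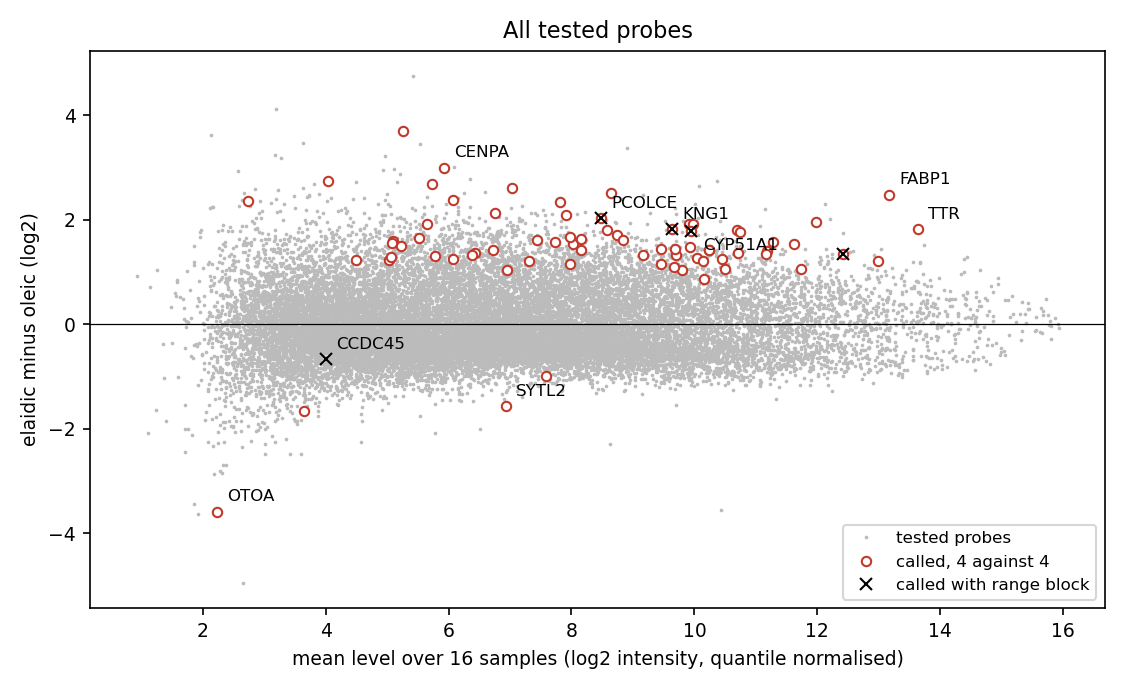
Elaidic minus oleic difference (log2) of each of 22939 tested probes against its mean level over 16 samples. Red circles are the 73 probes called over all samples, crosses the 5 called with the range as a block. Called probes lie mostly above 0, with 69 higher and 4 lower with elaidic acid.

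All 17 tested genes of cholesterol synthesis had a higher mean with elaidic acid. In the second arm of the pathway, which turns squalene into cholesterol, all 11 tested members had a higher mean with elaidic acid, 5 were called, and for 10 the groups did not overlap. Over all 12067 genes 0.423% were called, 0.406% higher and 0.0166% lower, and 5.26% had groups that did not overlap with elaidic acid above. These shares, and the 51.4% of all genes that were higher, are also the background of the lists that follow. The lists were chosen with earlier results of these data known, so these comparisons describe the lists and are not tests. The median difference of the 11 was 1.72, against 0.03 over all genes. Within range A all 11 were again higher, by a median of 1.36 against 0.04 over all genes, and for 10 both elaidic acid samples lay above the 4 oleic acid samples, where 7.5% of all genes did so.

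CYP51A1 encodes lanosterol demethylase, a P450 enzyme that starts the trimming of lanosterol. Its level was 11.13, 10.49, 11.06 and 10.78 in elaidic acid replicates 1 to 4, against 9.14, 9.21, 9.01 and 8.98 in oleic acid replicates 1 to 4. Each elaidic acid sample lay more than 1 log2 unit above each oleic acid sample, and replicates 2 and 4 were the lower ones. The difference was 1.78 ± 0.21 (SE, n = 4 per group; limma adjusted p = 0.0032), a fold of 3.44, and within range A it was 1.55 ± 0.23 (adjusted p = 0.036). The control samples, all in range A, averaged 9.27 ± 0.16, and the stearic acid samples, all in range B, 10.55 ± 0.28 (SD, n = 4 each). A second, dimmer probe of CYP51A1 ran the other way, by -0.67 ± 0.34 (adjusted p = 0.29), so that the probes of this gene disagree.

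NSDHL, a sterol dehydrogenase of the demethylating complex, had levels of 10.27, 10.31, 10.31 and 10.14 with elaidic acid, against 9.12, 8.79, 8.51 and 8.86 with oleic acid. The elaidic acid samples of both ranges lay close together. The difference was 1.44 ± 0.21 over all samples and 1.41 ± 0.25 within range A. SQLE, squalene epoxidase, an oxygen-dependent control point of the pathway, had levels of 9.96, 8.97, 9.84 and 9.39 with elaidic acid, against 7.92, 7.70, 7.64 and 8.01 with oleic acid. EBP, the sterol isomerase that moves the ring double bond, had levels of 8.01, 7.64, 7.52 and 7.76 with elaidic acid, against 6.91, 6.36, 6.12 and 6.68 with oleic acid. SC5DL, now SC5D, the desaturase that makes 7-dehydrocholesterol, had levels of 11.32, 10.20, 11.06 and 10.86 with elaidic acid, against 9.01, 9.09, 9.20 and 8.42 with oleic acid. All elaidic acid samples of these genes were above all oleic acid samples, and all were called over all samples (adjusted p between 0.015 and 0.029). Within range A their differences were 1.36 ± 0.27 for SQLE, 1.18 ± 0.26 for EBP and 1.60 ± 0.33 for SC5DL, none of which was called there.

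DHCR7, which makes cholesterol from 7-dehydrocholesterol, had a difference of 2.20 ± 0.49 (limma adjusted p = 0.078), or 1.65 ± 0.56 within range A, and FDFT1, squalene synthase, one of 2.74 ± 0.65 (adjusted p = 0.097). Both were not called. Their elaidic acid samples split by range: FDFT1 had levels of 12.83 and 12.38 in range B and 10.41 and 10.33 in range A, against 8.80, 9.43, 9.18 and 7.57 with oleic acid. LBR, a sterol reductase that also anchors the nuclear lamina, split in the same manner, at 9.68 and 9.28 in range B and 7.16 and 7.21 in range A, against 6.29, 7.20, 6.84 and 5.60 with oleic acid, and its groups overlapped. Differences of TM7SF2, HSD17B7 and SC4MOL (now MSMO1) lay at 1.03 ± 0.22, 1.29 ± 0.31 and 0.996 ± 0.32 and were not called.

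The first arm of the pathway, up to the farnesyl and geranylgeranyl building blocks, had 6 tested members. All 6 had a higher mean with elaidic acid, none was called, and the median difference was 0.82, or 0.89 within range A. MVK, mevalonate kinase, had levels of 8.13, 8.25, 8.18 and 8.32 with elaidic acid, against 7.58, 6.78, 6.54 and 7.45 with oleic acid, a difference of 1.13 ± 0.23 (limma adjusted p = 0.056). MVD, which makes isopentenyl diphosphate, was at 12.21 and 12.30 in the range B elaidic acid samples and at 13.11 and 13.32 in those of range A, against 12.40, 11.97, 12.13 and 12.40 with oleic acid. The order of the ranges is thus opposite to that of FDFT1 and LBR, and the difference within range A was 0.99 ± 0.25 against 0.51 ± 0.27 over all samples. FDPS, farnesyl diphosphate synthase, differed by 0.35 (95% interval -0.24 to 0.94).

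**Figure D3:**
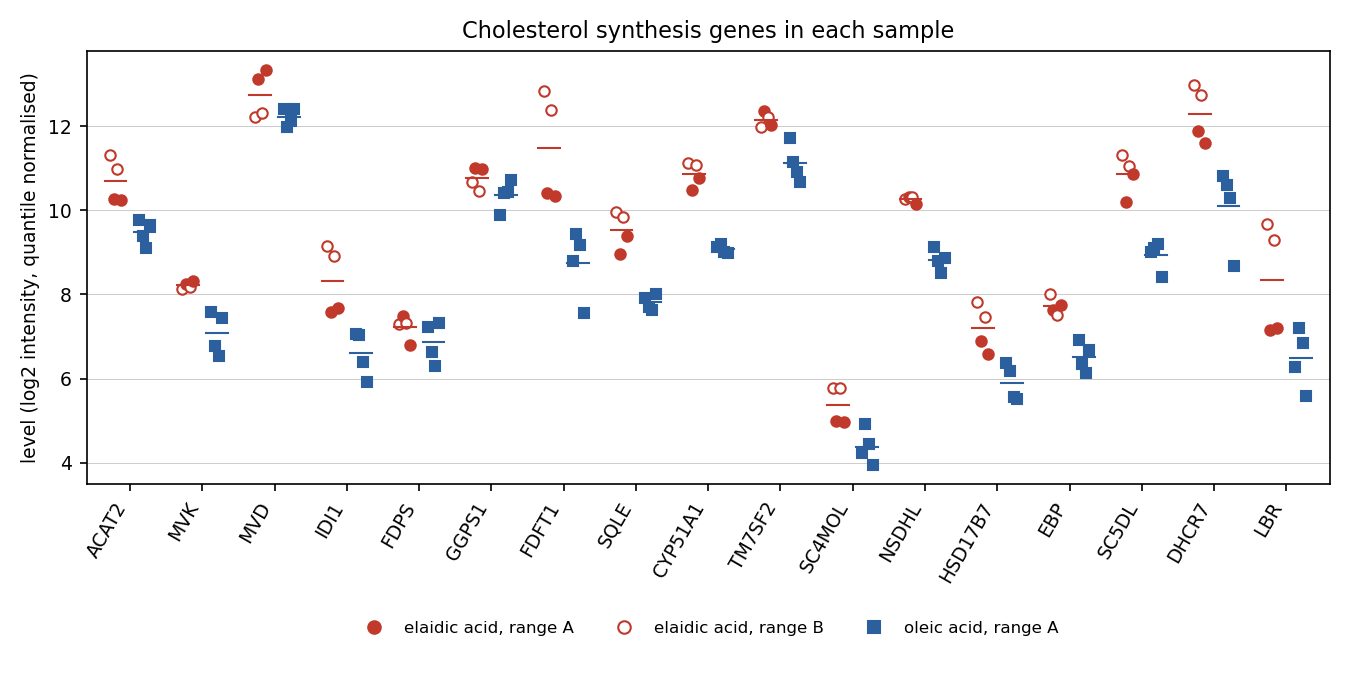
Level (log2 intensity, quantile normalised) of 17 cholesterol synthesis genes in each sample, with group means as lines. Genes are in pathway order from left to right, apart from LBR, which is placed last. Elaidic acid samples are red circles, filled in range A and open in range B, and oleic acid samples are blue squares. NSDHL shows elaidic acid samples of both ranges together, and FDFT1 shows the range B samples at 12.83 and 12.38 above those of range A.

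The 250 bases upstream of the start of NSDHL, EBP, CYP51A1 and SREBF2 are shown, with CCNB2 for the mitotic genes described further on. They come from RefSeq on GRCh38.p14, 5′ to 3′ on the strand of the gene, with capitals for matches on either strand to CCAAT, to TTTGAA, or to TCACNCCAC, a form of the sterol regulatory element. The windows are chrX:152830813-152831062 (plus strand) for NSDHL, chrX:48521558-48521807 (plus) for EBP, chr7:92134478-92134727 (minus) for CYP51A1, chr22:41832855-41833104 (plus) for SREBF2 and chr15:59104896-59105145 (plus) for CCNB2.
NSDHL: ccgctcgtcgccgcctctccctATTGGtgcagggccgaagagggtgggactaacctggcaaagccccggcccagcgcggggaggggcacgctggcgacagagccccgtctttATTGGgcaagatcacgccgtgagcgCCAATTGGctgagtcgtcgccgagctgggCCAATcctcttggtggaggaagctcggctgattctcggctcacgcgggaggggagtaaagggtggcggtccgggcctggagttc
EBP: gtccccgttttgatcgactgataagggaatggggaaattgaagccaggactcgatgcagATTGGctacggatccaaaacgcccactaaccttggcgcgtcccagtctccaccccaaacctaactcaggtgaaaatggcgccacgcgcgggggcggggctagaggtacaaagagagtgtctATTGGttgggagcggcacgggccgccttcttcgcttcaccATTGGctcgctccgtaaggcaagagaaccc
CYP51A1: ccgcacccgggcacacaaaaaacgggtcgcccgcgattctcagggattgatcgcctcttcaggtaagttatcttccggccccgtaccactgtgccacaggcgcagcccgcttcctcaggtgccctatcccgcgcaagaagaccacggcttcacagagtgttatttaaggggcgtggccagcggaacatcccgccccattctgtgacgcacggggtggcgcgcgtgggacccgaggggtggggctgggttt
SREBF2: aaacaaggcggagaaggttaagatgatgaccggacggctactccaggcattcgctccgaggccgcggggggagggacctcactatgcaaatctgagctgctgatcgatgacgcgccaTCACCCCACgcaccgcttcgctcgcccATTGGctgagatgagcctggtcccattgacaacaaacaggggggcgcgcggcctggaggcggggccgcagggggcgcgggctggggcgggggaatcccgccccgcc
CCNB2: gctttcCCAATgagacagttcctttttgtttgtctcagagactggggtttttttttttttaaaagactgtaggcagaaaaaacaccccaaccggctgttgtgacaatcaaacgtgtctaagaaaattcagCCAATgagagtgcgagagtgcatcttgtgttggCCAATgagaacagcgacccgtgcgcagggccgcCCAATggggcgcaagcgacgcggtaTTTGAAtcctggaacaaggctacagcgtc
NSDHL holds 5 CCAAT matches, of which 1 pair overlaps in CCAATTGG, EBP holds 3, SREBF2 holds 1 and CYP51A1 holds none. Among the 17 sterol synthesis genes with a promoter in that table, 12 (70.6%) held CCAAT, against 33% of all 27305 promoters of this length. CCAAT was not particular to these lists. Its share over the other lists ran from 14.3% in markers of other cell types to 85.2% in the unfolded protein response list. It was 54.5% in the cytochrome P450 list. TCACNCCAC was in 0.875% of all promoters, in none of the 17 and in SREBF2. The match is a description of letters and not a mapped site. Whether a match bears on the differences between the acids was not tested.

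Of 10 tested genes of SREBP control and sterol uptake, each taken by its brightest probe, none was called by limma, and the median difference was 0.80 over all samples and 0.28 within range A, where 6 of 10 were higher. SREBF2, which encodes SREBP-2, had levels of 10.62, 9.83, 10.47 and 9.52 with elaidic acid, against 8.53, 9.35, 9.11 and 7.95 with oleic acid. Its groups did not overlap, and the difference was 1.37 ± 0.38 (limma adjusted p = 0.13). The groups of a dimmer SREBF2 probe overlapped, with a difference of 0.87 ± 0.38, or 0.29 ± 0.39 within range A. SREBF1, which encodes SREBP-1, differed by 0.60 ± 0.24, and within range A, where its groups did not overlap, by 0.89 ± 0.26 (adjusted p = 0.48). A dimmer SREBF1 probe, with groups that did not overlap, gave 1.12 ± 0.34, or 0.79 ± 0.40 within range A. SCAP, the sterol-sensing escort of both factors, had levels of 10.31, 10.35, 10.16 and 10.83 with elaidic acid, against 11.14, 10.97, 10.99 and 12.04 with oleic acid. It lay below oleic acid in all 4 elaidic acid samples, by -0.87 ± 0.26 (adjusted p = 0.16), where 2.72% of all genes had groups that did not overlap with elaidic acid below. INSIG2, which retains SCAP in the ER, differed by 0.86 over all samples (95% interval -0.57 to 2.28) and by -0.33 within range A. INSIG1 and SCD, both SREBP targets, were left out, because 2 samples of the series for INSIG1 and 1 sample for SCD had no positive value. Their deposited intensity did not exceed 12.2 for INSIG1 or 47.3 for SCD in any of the 8 samples.

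Genes for sterol handling in the lysosome and for storage were among the calls. LIPA, the lysosomal acid lipase that frees cholesterol from its esters, had levels of 12.42, 11.48, 12.16 and 11.83 with elaidic acid, against 10.48, 11.02, 10.63 and 10.12 with oleic acid. The difference was 1.41 ± 0.24 (limma adjusted p = 0.022), or 1.09 ± 0.25 within range A, while its second, dimmer probe gave -0.53 ± 0.25 (adjusted p = 0.27). NPC2, a member of the uptake list that carries cholesterol out of the lysosome, has 2 probes. The dimmer one was called at 1.43 ± 0.25 (adjusted p = 0.024), and the brighter one was not, at 1.88 ± 0.51 (adjusted p = 0.13). SOAT1, which esterifies cholesterol in the ER, had levels of 10.64, 9.79, 10.21 and 10.17 with elaidic acid, against 9.21, 9.11, 8.91 and 9.22 with oleic acid, a difference of 1.09 ± 0.22 (adjusted p = 0.049), or 0.87 ± 0.25 within range A. PGRMC1, a membrane haem protein that binds CYP51A1 and other P450 enzymes, differed by 1.37 ± 0.23 (adjusted p = 0.021). SOAT1 was the only call among 12 tested genes of sterol efflux, storage and bile acids, whose median difference was 0.33, or 0.13 within range A.

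Fatty acid synthesis genes were called at 2 of 16 tested members, with 12 of 16 higher (75% against 51.4% of all genes) and a median difference of 0.48, or 0.29 within range A. ELOVL6, which elongates saturated and monounsaturated acyl chains, had levels of 12.24, 11.62, 11.56 and 12.02 with elaidic acid, against 9.92, 9.95, 9.89 and 10.64 with oleic acid. The difference was 1.76 ± 0.27 (limma adjusted p = 0.015) and within range A 1.72 ± 0.33 (adjusted p = 0.12), and a second probe gave 1.46 ± 0.33 (adjusted p = 0.08). ACSS2, which makes acetyl-CoA from acetate in the cytosol, had levels of 9.52, 7.69, 8.57 and 7.51 with elaidic acid, against 6.43, 5.998, 5.76 and 4.69 with oleic acid, a difference of 2.60 ± 0.50 (adjusted p = 0.041). Its range B samples were the highest, and the difference within range A was 1.88 ± 0.53. ACACA, acetyl-CoA carboxylase, was dim and differed by 0.91 ± 0.28 (adjusted p = 0.16). FADS3, of the front-end desaturase family, was called at 2.10 ± 0.40 by 1 probe and stood at 0.04 ± 0.22 by the other, so that its probes disagree. PTPLA, now HACD1, a dehydratase of chain elongation, was called at 1.29 ± 0.25 (adjusted p = 0.043). Its dimmer probe, with groups that overlapped, gave 1.05 ± 0.44, or 0.39 ± 0.46 within range A.

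In triglyceride storage LPIN1, the phosphatidate phosphatase that makes diacylglycerol, had levels of 12.02, 11.06, 11.99 and 11.51 with elaidic acid, against 10.11, 10.20, 10.03 and 8.99 with oleic acid. The difference was 1.81 ± 0.35 (limma adjusted p = 0.043), and it was the only call of 13 tested genes of triglyceride and lipid droplets, whose median difference was 0.63, or 0.45 within range A. PNPLA3, a lipid droplet acylhydrolase, had levels of 13.26, 13.71, 13.42 and 13.51 with elaidic acid, against 12.90, 12.53, 12.14 and 11.77 with oleic acid, a difference of 1.14 ± 0.24 (adjusted p = 0.061). DGAT1 and DGAT2, which add the last acyl chain of triglyceride, differed by 0.65 ± 0.22 and 0.63 ± 0.18 (adjusted p = 0.18 and 0.15) with groups that did not overlap. ADFP, now PLIN2, the main coat protein of hepatocyte lipid droplets, was at 13.32, 12.77, 13.18 and 13.13 with elaidic acid, against 12.95, 13.08, 12.69 and 13.04 with oleic acid. These overlapped, and the difference was 0.16 (95% interval -0.29 to 0.60).

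Binding and activation of fatty acids gave 2 calls among 11 tested genes, with a median difference of 0.63 that was 0.17 within range A. FABP1, the liver fatty acid binding protein, had levels of 14.94, 14.09, 14.96 and 13.94 with elaidic acid, against 12.51, 12.10, 12.36 and 11.03 with oleic acid. The lowest elaidic acid sample was above the highest oleic acid sample by more than 1 log2 unit. Both FABP1 probes were called, at 2.48 ± 0.43 (limma adjusted p = 0.024) and 2.68 ± 0.52 (adjusted p = 0.043), and within range A they stood at 2.02 ± 0.50 and 2.08 ± 0.60 without a call. ACSL4, an acyl-CoA synthetase with a preference for polyunsaturated chains, had levels of 11.01, 9.96, 10.69 and 10.68 with elaidic acid, against 8.999, 9.31, 9.04 and 9.22 with oleic acid, a difference of 1.45 ± 0.24 (adjusted p = 0.018). DBI, the acyl-CoA binding protein, differed by 1.65 ± 0.41 (adjusted p = 0.11). BRP44L, now MPC1, a subunit of the mitochondrial pyruvate carrier, was called at 1.93 ± 0.38 (adjusted p = 0.045).

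Fatty acid oxidation and PPARA targets gave no call by limma among 17 tested genes, 11 of which were higher, with a median difference of 0.26, or 0.11 within range A. HADH, of the third step of mitochondrial oxidation, came nearest, at 0.90 ± 0.20 (limma adjusted p = 0.077) with groups that did not overlap. CPT1A, the carnitine transferase that admits acyl chains to mitochondria, had levels of 5.33, 5.82, 5.56 and 5.94 with elaidic acid, against 5.91, 6.01, 5.79 and 5.56 with oleic acid. The difference was -0.15 (95% interval -0.61 to 0.30). ANGPTL4, a secreted lipase inhibitor under PPAR control, differed by -0.43 (95% interval -1.003 to 0.15). PDK4, which restrains pyruvate oxidation, was dim, with deposited intensity of its first probe at 30.6, 1.00, 9.45 and 15.6 with elaidic acid, against 8.99, 13.9, 19.0 and 7.15 with oleic acid. These groups overlapped. The intervals of CPT1A and ANGPTL4 include no difference, which does not show that the isomers act alike on them.

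**Figure D4:**
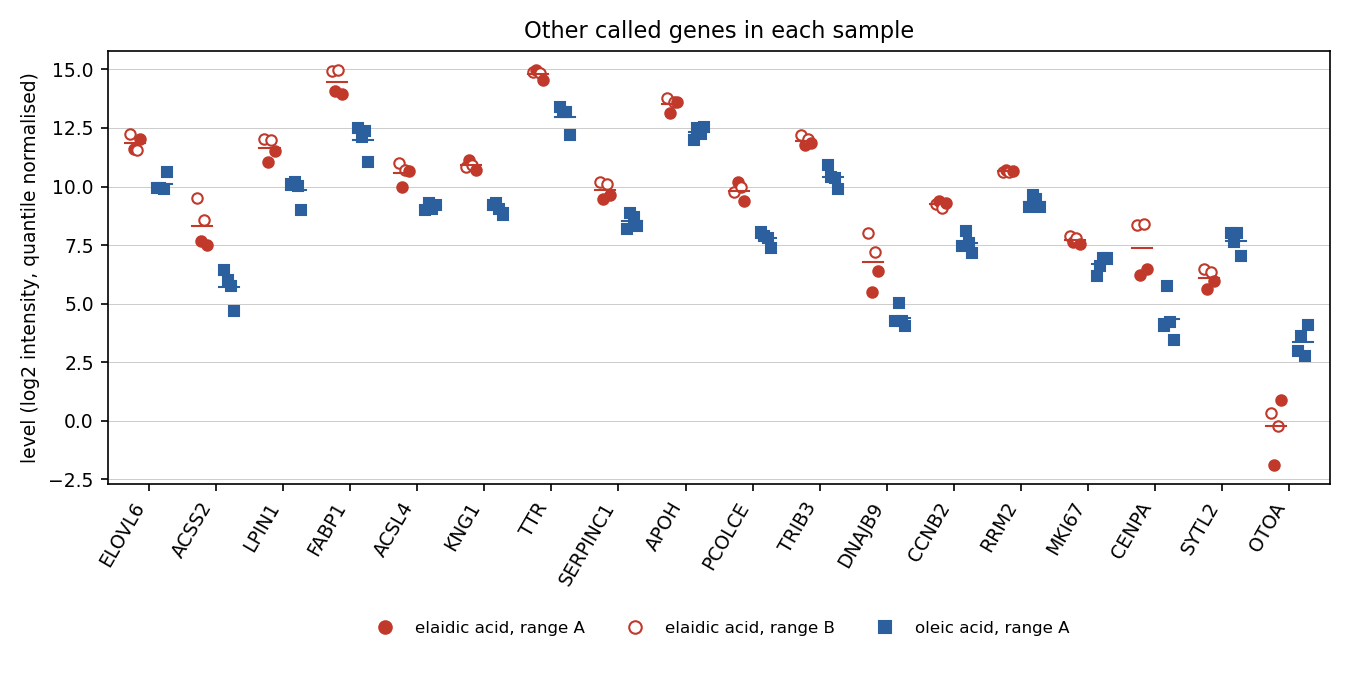
Level (log2 intensity, quantile normalised) of 18 called genes outside cholesterol synthesis in each sample, with group means as lines. Elaidic acid samples are red circles, filled in range A and open in range B, and oleic acid samples are blue squares. The groups do not overlap for any gene shown, SYTL2 and OTOA are lower with elaidic acid, and OTOA lies near 0 in the elaidic acid samples.

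Several secreted liver proteins were called. KNG1, kininogen, the precursor of bradykinin and a cofactor of contact coagulation, had levels of 10.85, 11.13, 10.90 and 10.72 with elaidic acid, against 9.22, 9.28, 9.02 and 8.79 with oleic acid. The elaidic acid samples of the 2 ranges were interleaved, and the difference was 1.82 ± 0.22 over all samples (limma adjusted p = 0.0032) and 1.85 ± 0.26 within range A (adjusted p = 0.036). PCOLCE, which enhances the processing of procollagen, had levels of 9.75, 10.18, 9.98 and 9.37 with elaidic acid, against 8.06, 7.90, 7.82 and 7.37 with oleic acid, a difference of 2.04 ± 0.23 (adjusted p = 0.0032) and 1.99 ± 0.28 within range A (adjusted p = 0.036). KNG1, PCOLCE and CYP51A1 were thus the named genes called higher in both fits. Controls averaged 8.99 ± 0.38 for KNG1 and 7.98 ± 0.16 for PCOLCE, and stearic acid samples 9.56 ± 0.13 and 8.32 ± 0.23 (SD, n = 4 each).

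TTR, transthyretin, which carries thyroid hormone and retinol binding protein, had levels of 14.89, 14.96, 14.85 and 14.53 with elaidic acid, against 13.39, 13.17, 13.18 and 12.21 with oleic acid, a difference of 1.82 ± 0.28 (limma adjusted p = 0.015), or 1.76 ± 0.34 within range A (adjusted p = 0.12). SERPINC1, antithrombin, was called at 1.32 ± 0.26 (adjusted p = 0.043) by 1 probe, while its brighter probe gave -0.47 ± 0.29 (adjusted p = 0.36). The brighter SERPINC1 probe represents the gene in the list of coagulation genes, so KNG1 is the only call there, of 21 tested, 18 of them higher (85.7% against 51.4% of all genes), with a median difference of 0.81, or 0.45 within range A. Of 25 other secreted plasma proteins TTR alone was called, 21 were higher, and the median difference was 0.96, or 0.64 within range A. TF, given above, and HPX, hemopexin, the haem scavenger, came next, HPX at 1.01 ± 0.22 (adjusted p = 0.071). The 8 hepatocyte markers summed above are themselves members of the coagulation, plasma protein and lipoprotein lists, so their sums are not a separate measure. Shares of higher genes like that of the coagulation list were also found in lists with housekeeping roles. They were 84.9% in oxidative phosphorylation, 86.4% in cytosolic ribosomal proteins and 96.2% in proteasome subunits.

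In lipoprotein assembly 2 of 11 tested genes were called and 10 were higher (90.9% against 51.4% of all genes), with a median difference of 0.78, or 0.39 within range A. APOH, a plasma glycoprotein that binds anionic phospholipid, had levels of 13.77, 13.13, 13.61 and 13.61 with elaidic acid, against 11.996, 12.49, 12.25 and 12.53 with oleic acid, a difference of 1.21 ± 0.22 (limma adjusted p = 0.034). APOA4, an apolipoprotein of triglyceride-rich particles, had levels of 8.45, 8.33, 8.54 and 7.72 with elaidic acid, against 7.10, 7.09, 6.78 and 5.60 with oleic acid, a difference of 1.62 ± 0.32 (adjusted p = 0.046). MTTP, which loads lipid onto apolipoprotein B, differed by 0.68 ± 0.21 (adjusted p = 0.17) with groups that did not overlap, and APOE by 0.96 ± 0.34 (adjusted p = 0.19). SLCO1B3, a hepatocyte uptake carrier for bile acids and drugs, was called outside these lists at 2.13 ± 0.36 (adjusted p = 0.022), and stood at 1.47 ± 0.34 within range A. The cytochrome P450 list, which leaves out CYP51A1, ran the other way, with 17 of 21 tested genes lower with elaidic acid, no call by limma, and a median difference of -0.48, or -0.17 within range A.

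Of 38 tested genes of mitosis and the kinetochore 31 were higher with elaidic acid and 7 lower, and 6 were called. For 18 (47.4%) the groups did not overlap with elaidic acid above, against 5.26% of all genes. The median difference was 0.71 over all samples and 0.70 within range A, where 33 were higher and none was called by limma, and the median gap between the elaidic acid samples of range B and those of range A was 0.05. CCNB2, a mitotic cyclin, had levels of 9.27, 9.40, 9.07 and 9.30 with elaidic acid, against 7.46, 8.11, 7.59 and 7.17 with oleic acid. The difference was 1.68 ± 0.27 (limma adjusted p = 0.018) and within range A 1.77 ± 0.33 (adjusted p = 0.10). MKI67, the Ki-67 proliferation antigen, had levels of 7.89, 7.64, 7.82 and 7.53 with elaidic acid, against 6.17, 6.62, 6.95 and 6.95 with oleic acid, a difference of 1.05 ± 0.21 (adjusted p = 0.045). The elaidic acid samples of both genes lay close together.

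CDCA5, sororin, which protects sister chromatid cohesion, was called at 1.63 ± 0.28, or 1.18 ± 0.28 within range A, and ZWINT, a kinetochore protein, at 1.15 ± 0.22, or 0.86 ± 0.23 within range A. OIP5, a loading factor of centromeric chromatin, was called at 2.75 ± 0.38 (limma adjusted p = 0.0098), though at a low level, 6.04, 4.84, 5.66 and 5.84 with elaidic acid, against 2.15, 3.63, 2.42 and 3.19 with oleic acid. CENPA, the centromeric histone, had levels of 8.35 and 8.41 in range B and 6.22 and 6.47 in range A with elaidic acid, against 4.04, 5.74, 4.22 and 3.44 with oleic acid. It was called at 3.001 ± 0.53 (adjusted p = 0.027), with 1.98 ± 0.48 within range A, unlike a very dim second probe at 0.81 ± 0.92. LMNB1, a nuclear lamina protein, UBE2T, a ubiquitin conjugase of DNA crosslink repair, and PIF1, a DNA helicase, were called outside the list at 1.42 ± 0.27, 1.37 ± 0.27 and 1.91 ± 0.32. LMNB1 has a dimmer probe at -0.47 ± 0.39. The groups of a dimmer UBE2T probe overlapped, with a difference of 2.19 ± 0.75, or 0.42 ± 0.50 within range A. Controls averaged 6.74 ± 0.46 for CCNB2 and 6.20 ± 0.11 for MKI67, and stearic acid samples 8.30 ± 0.32 and 7.20 ± 0.12 (SD, n = 4 each).

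Of 40 tested DNA replication genes 22 were higher, the median difference was 0.35, or 0.15 within range A, and RRM2 alone was called. RRM2, the ribonucleotide reductase subunit that peaks in S phase, had levels of 10.63, 10.71, 10.61 and 10.68 with elaidic acid, against 9.14, 9.62, 9.46 and 9.12 with oleic acid, a difference of 1.32 ± 0.23 (limma adjusted p = 0.027). The difference between the medians of the mitosis and replication lists was not tested. Of 20 tested p53 targets and CDK inhibitors none was called by limma, and the median difference was 0.30, or -0.10 within range A. CDKN1A, the p21 inhibitor, differed by 0.46 over all samples (95% interval -0.42 to 1.34) and by -0.05 within range A. TP53I3, a p53-induced oxidoreductase, lay at 6.08, 6.64, 6.24 and 6.52 with elaidic acid, against 6.95, 7.30, 7.32 and 7.33 with oleic acid, a difference of -0.85 ± 0.22 (adjusted p = 0.12). TTTGAA is part of the cell cycle homology element of late cell cycle genes. Among list members with a RefSeq promoter window, tested or not, it was in 23 of 45 mitosis genes (51.1%) and 1 of 41 replication genes (2.44%). It was in 13.6% of all promoters. CCAAT was in 35 of those 45 (77.8%). The CCNB2 window shown above holds 4 CCAAT matches and 1 of TTTGAA.

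Genes of ER stress were called at 1 of 27 in the unfolded protein response list and 1 of 19 in the ATF4 list, where 20 (74.1%) and 12 (63.2%) were higher, against 51.4% of all genes. DNAJB9, an ER co-chaperone induced in the unfolded protein response, had levels of 7.996, 5.49, 7.21 and 6.39 with elaidic acid, against 4.26, 5.02, 4.24 and 4.05 with oleic acid. Its elaidic acid samples spread widely, with range B on top, and the difference was 2.38 ± 0.40 (limma adjusted p = 0.022) and 1.55 ± 0.33 within range A. TRIB3, a pseudokinase target of ATF4 and CHOP, had levels of 12.20, 11.76, 12.01 and 11.88 with elaidic acid, against 10.94, 10.39, 10.36 and 9.89 with oleic acid, a difference of 1.57 ± 0.26 (adjusted p = 0.019). HSPA5, the ER chaperone BiP, differed by 1.14 ± 0.30 (adjusted p = 0.12), DDIT3, which encodes CHOP, by 0.64 ± 0.35 (adjusted p = 0.32), and XBP1 by -0.18 (95% interval -0.63 to 0.26). The medians of the 2 lists were 0.64 and 0.64 over all samples, and 0.32 and 0.58 within range A.

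Lists with broad housekeeping roles also had positive median differences, which were smaller within range A. Oxidative phosphorylation had a median difference of 0.64, which was 0.24 within range A, with 45 of 53 genes higher and 1 call. That call was CYC1, cytochrome c1 of complex III, with levels of 10.72, 11.38, 11.15 and 11.23 with elaidic acid, against 10.05, 9.85, 9.48 and 10.10 with oleic acid, a difference of 1.25 ± 0.22 (limma adjusted p = 0.027) and 1.44 ± 0.26 within range A. Cytosolic ribosomal proteins had a median of 1.03, or 0.59 within range A, with 19 of 22 higher and none called. The 7 tested genes commonly used as references for expression had a median of 0.90, or 0.26 within range A, and none was called. Over all samples their median was above those of the mevalonate arm (0.82), coagulation (0.81), lipoprotein assembly (0.78) and mitosis (0.71). Within range A it was below each of these. Glycolysis and NF-kB target lists stood near the median of all genes, at 0.02 and 0.08, or 0.04 and 0.05 within range A.

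**Figure D5:**
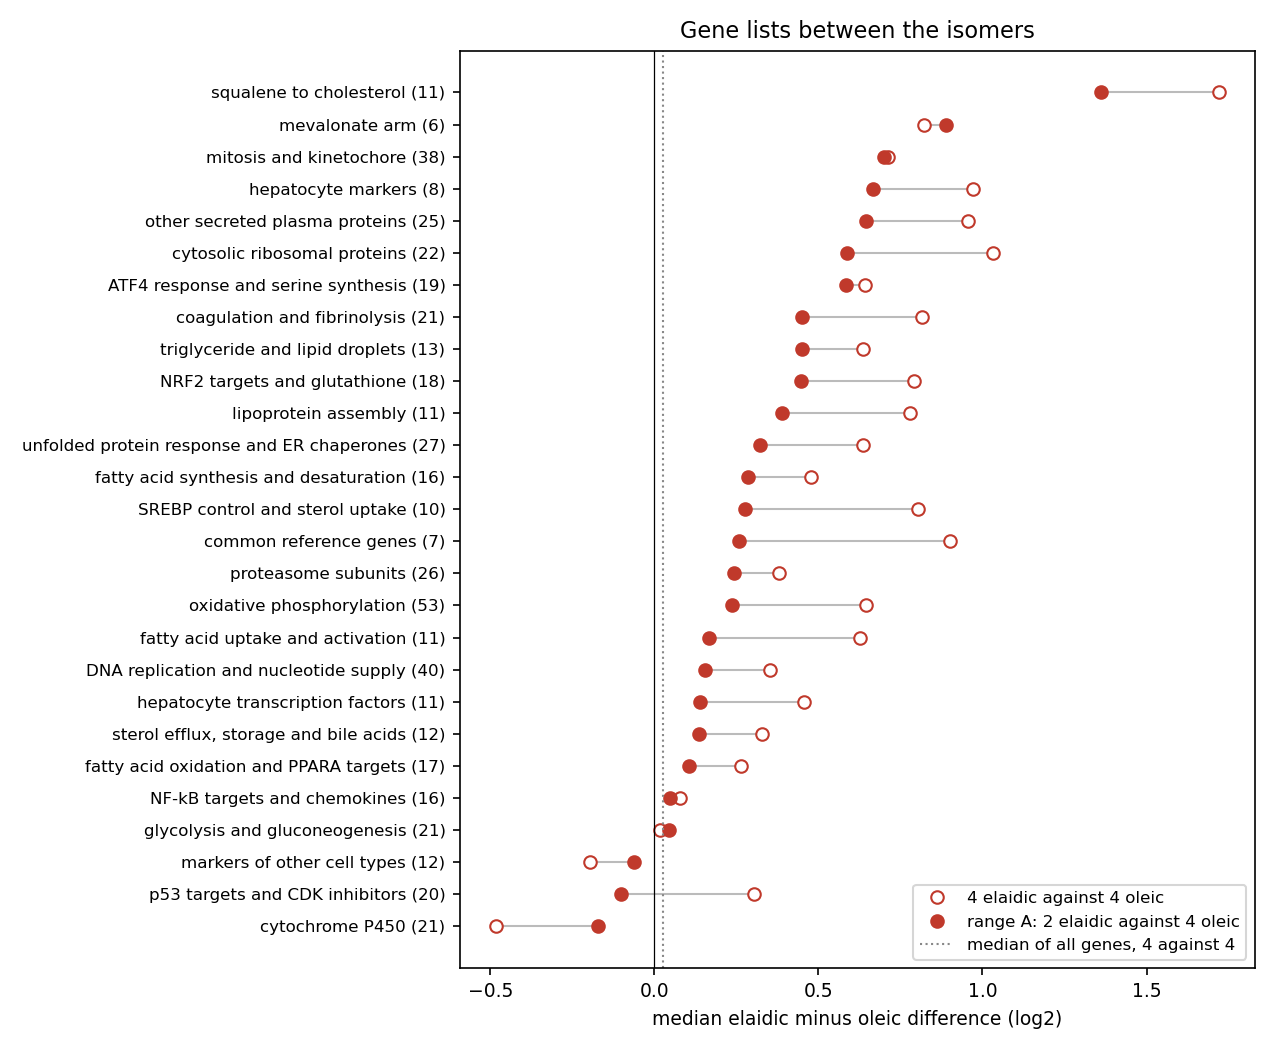
Median elaidic minus oleic difference (log2) of each gene list, with the number of tested genes in brackets, over all samples (open circles) and within range A (filled circles). The dotted line is the median of all genes, 0.03. The list from squalene to cholesterol stands at 1.72 and 1.36, mitosis at 0.71 and 0.70, and the common reference genes at 0.90 and 0.26.

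Of the 22939 tested probes 13094 had a lower mean with elaidic acid, and 4 were called lower. SYTL2, a Rab effector of vesicle traffic, had levels of 6.48, 5.62, 6.34 and 5.99 with elaidic acid, against 8.003, 7.64, 8.03 and 7.02 with oleic acid, a difference of -1.56 ± 0.27 (limma adjusted p = 0.024) and -1.87 ± 0.31 within range A (adjusted p = 0.066). OTOA, an inner ear matrix protein, was called at -3.58 ± 0.56 (adjusted p = 0.018), but its levels with elaidic acid, 0.33, -1.87, -0.24 and 0.89, are near the bottom of the scale, against 2.96, 3.63, 2.75 and 4.09 with oleic acid. NDUFA12L, now NDUFAF2, a complex I assembly factor, was called at -1.67 ± 0.31 by a dim probe, while its bright probe gave 0.82 ± 0.49. The fourth call has no gene symbol. Within range A alone CCDC45, now CEP95, was called at -2.31 ± 0.32 (adjusted p = 0.036), the only probe called lower there (0.00436% of those tested), with levels of 5.10 and 4.87 in range B and 1.39 and 2.01 in range A with elaidic acid, against 3.84, 4.19, 4.14 and 3.85 with oleic acid. The 2 elaidic acid ranges lay on opposite sides of the oleic acid samples, and the difference over all samples was -0.66 ± 0.65.

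The remaining named calls, all higher with elaidic acid, had differences between 1.04 and 2.36. They include ISOC1 at 1.43 ± 0.26, CTSH, a lysosomal cysteine protease, at 1.42 ± 0.29, and GNE, the entry enzyme of sialic acid synthesis, at 1.47 ± 0.29. MEP1A, a secreted and membrane metalloprotease subunit, and IL17B, a cytokine of the interleukin 17 family, were called at 1.62 ± 0.25 and 1.58 ± 0.24 (limma adjusted p = 0.015 each). SLC25A5, the ADP/ATP carrier of the inner mitochondrial membrane, stood at 1.17 ± 0.22, BID, a pro-apoptotic BCL2 family member, at 1.24 ± 0.25, and TSC22D3, a glucocorticoid-induced leucine zipper protein, at 1.25 ± 0.24. C9orf61, now ENTREP1, was called at 2.36 ± 0.39 from a dim probe. POLR2I, ZNF289 (now ARFGAP2) and CETN2 were called by 1 probe each, and another probe of each gene gave a difference between -0.45 and 0.03. RBKS, MRFAP1, ZCCHC3, LSM6 and ACBD6 complete the named calls. Another MRFAP1 probe, with groups that overlapped, gave 1.23 ± 0.47, or 0.06 ± 0.26 within range A. Another ZCCHC3 probe, with groups that did not overlap, gave 1.97 ± 0.48, or 1.13 ± 0.47 within range A.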

How the data were processed

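RNA of 16 HepG2 samples was amplified with aminoallyl-UTP, coupled to Cy5 and hybridised to 1-colour arrays, per the labels' protocols. The deposited table holds intensity on a linear scale, 1 value per probe and sample for 30968 probes. Values at or below 0 show that a background was subtracted. The background method, any scaling and the way technical replicates were combined are not given in the sources used here. A symbol was given for 17397 probes in GEO's platform annotation, which can be old, and current names came from RefSeq synonyms.

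Values were transformed to log2. Of the probes, 8029 (25.9%) had no positive value in at least 1 of the 16 samples and were dropped, and 22939 were quantile normalised. The model was limma's lmFit with eBayes (version 3.58.1, R 4.3.3), with 4 group means over all 16 samples and two-sided tests of elaidic minus oleic acid. It was fitted again with the array-number range as a block. Errors of differences are model standard errors from the spread pooled over all groups of the fit, and intervals are 95% intervals. Gene lists used the probe of highest mean per symbol and are described by counts and medians, without a test. The members and the 27 lists were chosen with earlier results of these data known. Named genes were all called probes with 1 symbol, list members that were called or had the smallest p (up to 6 a list), a fixed set of lipid, stress and liver genes, and the probes of smallest p within range A. The model was tested on simulated data with known changes. These had independent noise, no shift between array ranges and no outlying array, so the simulation does not bear on those features. The pairing of replicate numbers was checked through the correlation of deviations from the group means, which was 0.21, -0.19, 0.11 and 0.36 for numbers 1 to 4, so the numbers were not taken as pairs. Very bright probes may be compressed, and 51 probes exceeded 60000 on some array. Precision is limited by the number of arrays. Promoter windows came from the RefSeq table, with 27305 genes. Python 3.11.15 and matplotlib 3.10.9 drew the figures. Alternatives covered normalisation, dim probes, the variance model, blocks, subsets and each replicate left out.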

Additional observations from a re-analysis of the deposited data

Results flagged for a closer look

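In 14 of 298 groups of 4 samples, 1 sample lay far from the other three by Dixon's test (95% level). The ratio given for each is the gap to the nearest other sample over the whole range. Chance gives about 1 in 20 groups. Oleic acid replicate 4, the array of lowest median intensity among the 8 and the one at -123.4 on the first principal component, accounts for 7 of the 14. It was low for LPIN1 (8.99, others 10.03 to 10.20; ratio 0.864), INSIG2 (4.32; ratio 0.867), NR1H4, the bile acid receptor FXR (4.01; ratio 0.906), DCI, an enoyl-CoA isomerase of fatty acid oxidation (12.73; ratio 0.850), and HSD17B4, a peroxisomal enzyme (10.36; ratio 0.833). It was high for ELOVL6 (10.64, others 9.89 to 9.95; ratio 0.918) and SCAP (12.04; ratio 0.842). Without that sample 23 probes were called. Oleic acid replicate 1 was low for ANGPTL4 (6.71; ratio 0.947) and TP53I3 (6.95; ratio 0.916) and high for SLC25A1, the citrate carrier (9.55; ratio 0.830). With elaidic acid, replicate 1 was high for TKT, transketolase (15.16; ratio 0.922), replicate 2 was high for HPX (11.26; ratio 0.893) and DGAT1 (12.98; ratio 0.861), and replicate 4 was low for HSPA5 (5.79, others 6.77 to 6.88; ratio 0.892).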

How the results depend on the processing

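The count of called probes, 73 in the fit described, was sensitive to the choice of samples and of the variance model. It was 2 without normalisation, 55 with median centring, 68 with cyclic loess, 25 with values under 1 set to 1, 216 with an offset of 50 (177 higher, 39 lower), 180 without the dimmest 50% of probes (150 higher, 30 lower), 126 with an intensity trend, 121 with trend and robust variances, 8953 with array weights (4300 higher, 4653 lower) and 19 with the range as a random block (consensus correlation 0.35). With the range as a block it was 5, and for elaidic acid replicates 1 and 3 alone it was 5054 (2590 higher, 2464 lower). Against a minimum change of 1.5-fold it was 0 (621 at an unadjusted p under 0.05). It was 0 by limma for the 8 samples alone (2869 at an unadjusted p under 0.05) and for the 8 arrays filtered and normalised alone (2861). It was also 0 for the 10 samples of range A (863), for the 2 elaidic and 4 oleic acid samples of range A (896) and for replicates 2 and 4 of both acids (819). Fewer samples estimate the spread in these fits, and whether that lowered the count was not tested. Leaving out 1 elaidic acid replicate gave 3 to 192 calls: 3 without replicate 1, 115 without replicate 2, 7 without replicate 3 and 192 without replicate 4 (160 higher, 32 lower). Leaving out 1 oleic acid replicate gave 13 to 63, with 39 without replicate 2, 13 without replicate 3 and 23 without replicate 4. Within range A the count of 5 became 29 (2 higher, 27 lower) without elaidic acid replicate 2 and 96 (8 higher, 88 lower) without replicate 4, fits added after seeing the data in which the lone elaidic acid sample of range A is assumed to vary like the other groups. The replicate block gave 4 calls, all among the 73. As a hint from the data, elaidic acid replicates 1 and 4 correlated best with the oleic acid replicate of their own number and replicates 2 and 3 did not. The cause of these shifts was not tested.

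No called gene changed sign except CCDC45, which is -2.31 within range A and was 0.39 with array weights and 0.98 with elaidic acid replicates 1 and 3 only. Among values that were not called, CPT1A was 0.065 within range A, 0.13 without normalisation, 0.10 with replicates 2 and 4 of both acids, and within range A 0.12 without elaidic acid replicate 2 and 0.0093 without replicate 4. INSIG2 was -0.33 and CDKN1A -0.047 within range A, and there -1.03 and -0.18 without elaidic acid replicate 4. ADFP was -0.12 with replicates 2 and 4 of both acids and -0.18 within range A without replicate 4. Within range A without replicate 2 XBP1 was 0.18 and FDPS -0.085, and XBP1 was 0.12 without normalisation. Median array intensity differed by 7.76 over all samples and by -5.62 within range A (exact permutation p = 0.80). Skipping normalisation moved the median of all genes to 0.29, against 0.03. The median from squalene to cholesterol stayed between 1.32 and 2.01 over 28 alternatives, and was 1.24 within range A without elaidic acid replicate 4, and that of mitosis between 0.48 and 1.04, while that of DNA replication was -0.03 without the dimmest probes, that of p53 targets -0.10 within range A, that of glycolysis reached -0.10 without elaidic acid replicate 1, that of NF-kB targets -0.09 within range A without elaidic acid replicate 4 and that of markers of other cell types 0.06 without normalisation. Levels near the bottom of the scale, as for OTOA and PDK4, are limited by signal over background.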

Other observations

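Other gene groups gave values but no calls by limma. Among 18 tested NRF2 targets and glutathione genes 15 were higher with elaidic acid, with a median difference of 0.79, or 0.45 within range A. HMOX1, haem oxygenase, had levels of 7.87, 6.79, 7.73 and 6.23 with elaidic acid, against 6.10, 5.52, 5.18 and 5.60 with oleic acid, a difference of 1.56 ± 0.35 (limma adjusted p = 0.08), or 0.91 ± 0.32 within range A. Of 26 proteasome subunits 25 were higher, at a median of 0.38, and within range A 20, at 0.24. For 2 (7.69%) the groups did not overlap with elaidic acid above, against 5.26% of all genes. In glycolysis ALDOC differed by 1.35 ± 0.29 (adjusted p = 0.071) and ENO2, with groups that did not overlap, by -0.70 ± 0.21 (adjusted p = 0.15).

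Over 31 fits, KNG1 and PCOLCE were called in 23 and CYP51A1 in 22, the highest counts of all probes called in the 73 or within range A. ELOVL6 followed with 19, and SC5DL, TTR and IL17B with 18. OIP5 was called in 18 of the 30 fits that tested it. Array weights, estimated from the data, were 1.26 and 2.97 for elaidic acid replicates 1 and 3 and 0.31 and 0.32 for replicates 2 and 4, against 0.56, 3.67, 1.27 and 0.31 for oleic acid replicates 1 to 4.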
